A study of Homo sapiens with 8 samples.

Results

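Vitamin C added to DZNep was examined by setting the 2 libraries of HL60 cells given VC with DZNep against the 2 libraries given DZNep alone, which are 4 of the 8 libraries measured. All genes entered the comparison, and 9513 of the 9543 in the table passed a filter on low values. HL60 is a suspension line from a human acute myeloid leukaemia, and every library came from this 1 line after 72 h in serum-containing culture. The 4 groups of 2 libraries had received PBS, VC (vitamin C), DZNep (3-deazaneplanocin A), or VC and DZNep together. The sources used here give no dose, and leave unsaid whether libraries of 1 group were separate cultures, so the p-values measure only the spread between these libraries. The title of the series poses the question of vitamin C and the anti-leukaemic action of DZNep.

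DZNep inhibits S-adenosylhomocysteine hydrolase, the enzyme encoded by AHCY, so that S-adenosylhomocysteine builds up and slows methyltransferases, among them the histone methyltransferase EZH2. Vitamin C keeps the iron of 2-oxoglutarate-dependent dioxygenases, such as the TET and JmjC enzymes, in its reduced form, and its oxidised form enters cells through glucose transporters and draws on their reducing power. Under amino-acid shortage or oxidative stress, cells can turn on the integrated stress response, in which the transcription factor ATF4 induces genes of amino-acid synthesis, amino-acid uptake and tRNA charging. The transcription factor NRF2 governs a separate antioxidant program.

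The values are whole-number units that the authors normalized until each of the 8 libraries had an identical set of values, totalling 1988507 per library with a median of 88. Depth is therefore unknown, a shift shared by most genes cannot be seen, and levels cannot be compared from gene to gene. The myeloperoxidase gene MPO, a marker of promyelocytes, stood between 2726 and 3652 in all 8 libraries, and at 3652 in each of the 4 compared here. Of the 4 lymphoid markers in the table, CD79A stood at 8 to 22, CD2 at 6 to 38, NKG7 at 19 to 24 and CD4, which monocytes also express, at 582 to 1032. In the 4 compared libraries the 5 eosinophil, basophil and mast cell markers in the table summed to 1157 to 1770. The 3 erythroid and megakaryocyte markers in the table summed to 488 to 793, most of it from ITGA2B. Some genes used as markers of other lineages thus had values, while most markers sought for these lineages are not in the table. Spearman's rho across genes was 0.982 between the DZNep libraries and 0.983 between those with VC and DZNep, against 0.974 to 0.978 between the groups. As in any bulk sample, fewer cells of a type and less RNA per cell cannot be told apart.

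With VC added to DZNep, 13 of 50 genes of the integrated stress response fell, among them PSAT1 and ASNS of amino-acid synthesis, the amino-acid transporter gene SLC7A5 and the tRNA synthetase gene MARS, by about 2-fold for the largest. The transferrin receptor gene TFRC and 4 of 31 genes of the NRF2 antioxidant list rose, 1 of the 31 fell, and each of these 5 increases lost its call when any 1 of the 4 compared libraries was left out. A gene is termed called where limma's adjusted p was under 0.05. With the 4 compared libraries fitted alone, 2 of the 13 stress response genes were called. ATF4, DDIT3 and TRIB3, defining genes of the response, were not called. Of 9513 genes, 64 were called (0.673%), of which 25 rose (0.263%) and 39 fell (0.41%). An unadjusted p under 0.05 was reached by 1280 genes (13.5%), 602 higher (6.33%) and 678 lower (7.13%), where uniform p-values would give 476. The median log2 fold change over all genes was 0 and the median size 0.166, while the smallest called change had a size of 0.45. The 4 libraries did not overlap between the groups for any of the 64 called genes, and this was so for 3891 genes in all (40.9%). Of 86 genes at least 2-fold apart, 71 were not called, and these had a median value of 17.5 units against 430 for called genes.

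**Figure D1:**
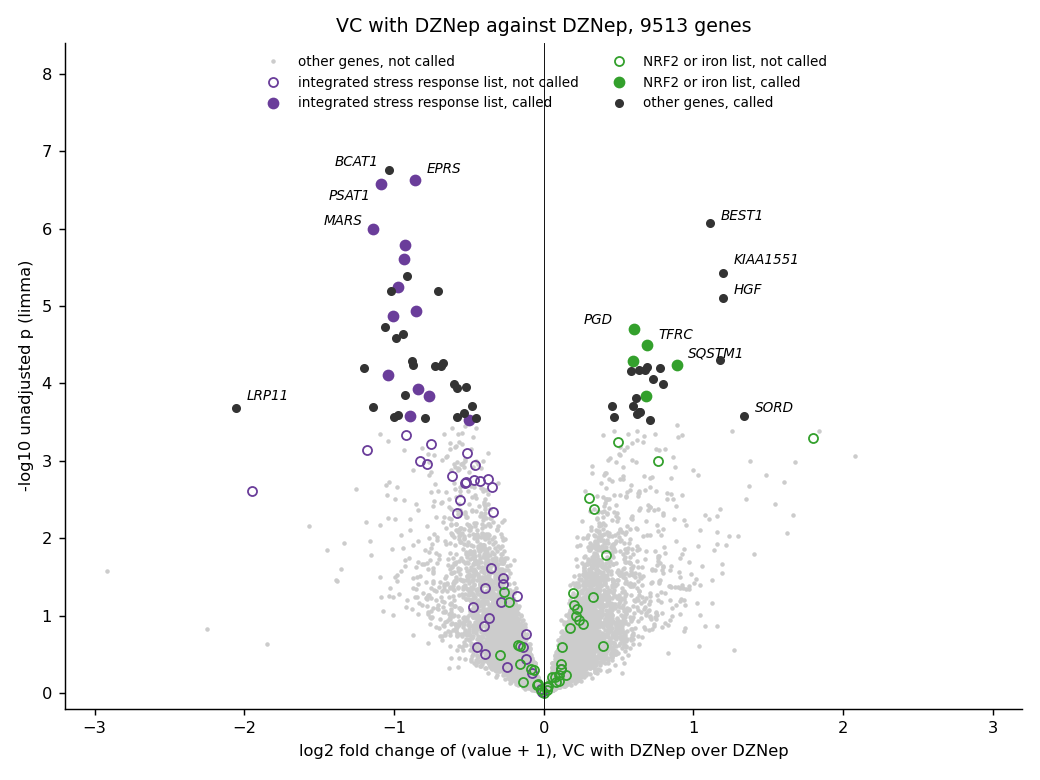
Log2 fold change of VC with DZNep over DZNep (x axis) against the -log10 unadjusted p from limma (y axis), with 1 point for each of 9513 genes. Filled purple points are called genes of the integrated stress response list, filled green points called genes of the NRF2 or iron lists, and filled black points the other called genes. The 13 called stress response genes all lie on the left, and the 5 called green genes on the right. SLC7A11, a member of both kinds of list, is drawn in purple.

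The calls rest on few libraries. Leaving out DZNep replicate 1 left 4 calls, leaving out DZNep replicate 2 left 16, and leaving out VC with DZNep replicate 1 or 2 left 23 or 20. Without VC replicate 1 or 2, which enter only through the shared spread, 32 or 29 genes were called, and without PBS replicate 1 or 2 it was 70 or 69. Without the intensity trend in the prior variance, 2 genes were called, of which 1 was among the 64. All 64 kept their sign under each of the 15 alternatives in which they were fitted. BCAT1 and EPRS were called in 14 of the 15, every one but the fit without the trend.

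The integrated stress response list held 50 measured genes, of which 13 fell, 0 rose and 49 had a negative log2 fold change. Its share of called genes was 26.0%, beside 0.41% of all genes called lower, and its median log2 fold change was -0.49, beside 0 for all genes. An unadjusted p under 0.05 was reached by 35 of the 50, all of them lower with VC, where 7.13% of all genes were. For VC without DZNep, against PBS, the list's median was -0.11 with 0 genes called. DZNep against PBS gave a median of -0.87, a comparison that shares its DZNep libraries with the one described here.

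The serine synthesis enzymes were among the called members. PSAT1, phosphoserine aminotransferase, measured 742 and 752 units with PBS, 638 and 670 with VC, 320 and 335 with DZNep, and 162 and 146 with VC and DZNep. The combination was thus the lowest of the 4 groups for PSAT1, without overlap, and 2.12-fold below DZNep (log2 fold change -1.09 ± 0.0935, SE, limma adjusted p = 0.000839). PHGDH, phosphoglycerate dehydrogenase, which starts the same pathway, measured 1215 and 1057, 962 and 1056, 416 and 301, and 149 and 198 units in the same order. It was 2.05-fold below DZNep (-1.04 ± 0.166, adjusted p = 0.0213), without overlap. PSPH, the last enzyme of the pathway, was not called, at 27 and 38 units with DZNep and 26 and 20 with VC and DZNep (log2 fold change -0.47, adjusted p = 0.429).

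ASNS, asparagine synthetase, fell 1.90-fold, from 322 and 299 units with DZNep to 154 and 172 with VC and DZNep (-0.93 ± 0.0965, limma adjusted p = 0.00258). PCK2, the mitochondrial phosphoenolpyruvate carboxykinase, fell 1.97-fold, from 120 and 112 to 61 and 56 units (-0.98 ± 0.116, adjusted p = 0.00509). In both genes VC alone lay near PBS, with ASNS at 560 and 560 against 638 and 660 units and PCK2 at 246 and 237 against 249 and 242. The other called members with no role in tRNA charging or amino-acid uptake were CLIC4, an intracellular chloride channel protein (-0.90, adjusted p = 0.0431), and ATF5, a transcription factor related to ATF4 (-0.50, adjusted p = 0.0441). CLIC4, ATF5 and PSPH were named after their values were seen.

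Several defining genes of the response were not called. ATF4 itself measured 596 and 596 units with DZNep and 549 and 549 with VC and DZNep (log2 fold change -0.12, limma adjusted p = 0.568). DDIT3, which encodes the transcription factor CHOP, measured 28 and 32 against 26 and 34 units (-0.01, adjusted p = 0.994), and its groups overlapped. TRIB3, a pseudokinase induced by ATF4 and CHOP, measured 164 and 177 against 148 and 132 (-0.28, adjusted p = 0.405). CHAC1, a glutathione-degrading enzyme, had the largest difference of the list, at 16 and 28 against 10 and 2 units (-1.95 ± 0.492, adjusted p = 0.113), in a range where neighbouring values lie far apart. Between 2 and 10 units the median step was 0.193 and the largest 0.737 on the log2 scale, against 0.0121 and 0.0437 between 50 and 200.

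Each library bore on these calls. Of the 13, 2 were called without DZNep replicate 1 (limma adjusted p 0.0334 to 0.246), 7 without DZNep replicate 2 (0.022 to 0.263), 9 without VC with DZNep replicate 1 (0.00599 to 0.174) and 6 without VC with DZNep replicate 2 (0.00845 to 0.259). Without VC replicate 1 or 2 there were 8 and 8, and without PBS replicate 1 or 2 there were 11 and 11. Without the intensity trend there were 0 (0.0554 to 0.205), and with the 4 compared libraries fitted alone there were 2 (0.0375 to 0.236). The median of the 50 stayed between -0.56 and -0.46 over the 15 alternatives.

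Promoter windows of the stress response genes were read for the C/EBP-ATF response element, written TGATGNAA, on both strands. Of 50 genes, 41 matched a RefSeq window of 300 bases (250 before and 50 after the start, GRCh38.p14), and 12 of these held the element (29.3%). It was in 132 of 7882 windows of all tested genes (1.67%) and in 3.67% of all 27305 windows. Among called genes with a window it was in 3 of 31 that fell and 0 of 18 that rose. The 3 were ASNS, MARS and BCAT1. Their windows, and that of CHAC1, the list member with the largest difference, are shown because they hold the letters. CHAC1 was not called. Capitals mark the element or its reverse complement.

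ASNS: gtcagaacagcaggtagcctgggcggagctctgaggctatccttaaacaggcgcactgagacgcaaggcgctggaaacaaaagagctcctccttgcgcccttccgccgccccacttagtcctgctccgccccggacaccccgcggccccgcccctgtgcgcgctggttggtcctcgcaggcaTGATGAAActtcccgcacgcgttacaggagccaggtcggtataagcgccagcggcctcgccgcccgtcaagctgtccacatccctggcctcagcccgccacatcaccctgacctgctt

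MARS: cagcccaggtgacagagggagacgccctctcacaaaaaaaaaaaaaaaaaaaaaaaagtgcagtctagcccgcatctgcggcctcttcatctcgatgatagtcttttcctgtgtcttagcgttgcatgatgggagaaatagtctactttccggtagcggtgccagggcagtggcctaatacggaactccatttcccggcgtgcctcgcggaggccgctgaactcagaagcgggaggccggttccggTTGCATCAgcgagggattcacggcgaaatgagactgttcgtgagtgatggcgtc

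BCAT1: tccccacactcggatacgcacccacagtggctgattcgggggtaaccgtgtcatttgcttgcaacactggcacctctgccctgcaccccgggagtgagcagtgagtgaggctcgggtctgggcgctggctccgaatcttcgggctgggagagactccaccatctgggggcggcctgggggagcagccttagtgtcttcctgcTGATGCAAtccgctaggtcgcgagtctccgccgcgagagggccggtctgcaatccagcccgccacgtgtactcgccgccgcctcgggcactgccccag

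CHAC1: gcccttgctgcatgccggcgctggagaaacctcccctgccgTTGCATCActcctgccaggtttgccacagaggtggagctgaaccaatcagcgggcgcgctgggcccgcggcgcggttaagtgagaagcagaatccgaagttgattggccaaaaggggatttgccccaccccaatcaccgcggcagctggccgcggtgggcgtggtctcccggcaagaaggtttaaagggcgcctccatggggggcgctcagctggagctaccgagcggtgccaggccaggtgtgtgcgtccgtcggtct

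The ASNS window is chr7:97872359-97872658 on the minus strand, with the element beginning 68 bases before the start. The MARS window is chr12:57487818-57488117 on the plus strand, with the reverse complement from 4 bases before the start. That of BCAT1 is chr12:24949052-24949351 on the minus strand, with the element from 48 bases before the start, and that of CHAC1 is chr15:40953221-40953520 on the plus strand, with the reverse complement from 209 bases before it. A match to these letters is a description of the window and was not tested as a binding site.

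The cytosolic aminoacyl-tRNA synthetases, which load amino acids onto tRNAs, held 4 of the called genes. Of 19 measured, 4 fell (21.1%, beside 0.41% of all genes called lower), 0 rose and 17 were negative. The median log2 fold change was -0.46. All 4 called genes are among the 12 that also stand in the stress response list, whose median was -0.64. The other 7 had 0 called, 3 with an unadjusted p under 0.05 and a median of -0.15. Of all genes, 13.5% reached that p.

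MARS, methionyl-tRNA synthetase, measured 1376 and 1122 units with PBS, 1032 and 1172 with VC, 784 and 773 with DZNep, and 334 and 374 with VC and DZNep. The combination lay below every other library and 2.20-fold below DZNep (-1.14 ± 0.113, limma adjusted p = 0.00192). EPRS, glutamyl-prolyl-tRNA synthetase, measured 1903 and 2021, 2168 and 2168, 1443 and 1377, and 784 and 772 units in the same order. VC alone thus lay above PBS for EPRS, a difference that was not called (0.14, limma adjusted p = 0.954). VC with DZNep lay 1.81-fold below DZNep (-0.86 ± 0.073, adjusted p = 0.000839). The glycyl enzyme GARS (-0.85, adjusted p = 0.00796) and the leucyl enzyme LARS (-0.84, adjusted p = 0.0276) fell by similar amounts. XPOT, which exports tRNAs from the nucleus, fell 1.91-fold, from 1056 and 900 to 548 and 476 units (-0.93 ± 0.101, adjusted p = 0.00338). At the other end of the list the histidyl enzyme HARS (0.11, adjusted p = 0.70) and the arginyl enzyme RARS (0.03, adjusted p = 0.951) had positive values.

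Amino-acid transporters had 2 called genes of 20 measured (10.0%, beside 0.41% of all genes called lower), both lower, with 15 negative and a median of -0.24. An unadjusted p under 0.05 was reached by 8 of the 20, all lower, where 7.13% of all genes were. SLC7A5, the LAT1 transporter of large neutral amino acids, fell 2.01-fold, from 752 and 718 units with DZNep to 412 and 324 with VC and DZNep (-1.01 ± 0.132, limma adjusted p = 0.00853). SLC7A11, which takes up cystine for glutathione synthesis, fell 1.70-fold, from 186 and 203 to 105 and 124 (-0.76 ± 0.132, adjusted p = 0.0316), and stood at 380 and 340 with VC alone against 324 and 390 with PBS. Their partner SLC3A2, the shared heavy chain of both, was not called, at 252 and 254 against 227 and 194 units (-0.27, adjusted p = 0.333). SLC1A5, the ASCT2 glutamine carrier, was not called either (-0.51, adjusted p = 0.0698), nor was the neutral amino-acid carrier SLC1A4 (-0.52, adjusted p = 0.0998). The 13 transporters outside the stress response list had a median of -0.06 and 0 called. The 29 genes of the unfolded protein response of the endoplasmic reticulum had a median of 0.04 and 0 called. An unadjusted p under 0.05 was reached by 3 of them, where 13.5% of all genes did.

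**Figure D2:**
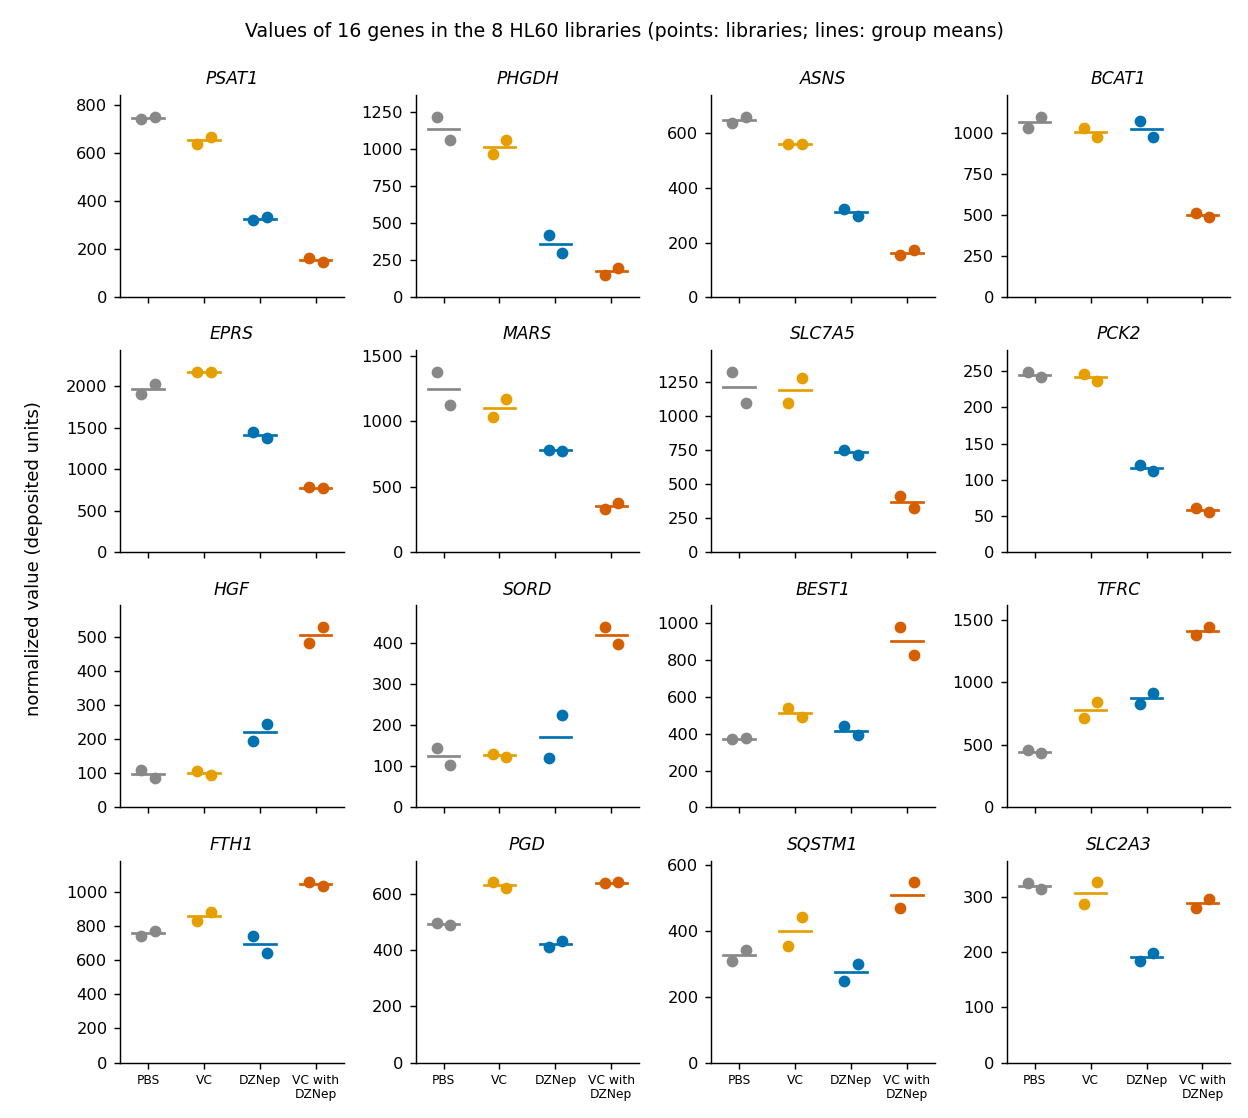
Normalized value (y axis, deposited units, from 0) of 16 genes in the 4 groups (x axis), with 1 point for each library and a line at the mean of 2. For the first 8 genes the VC with DZNep libraries are the lowest of the 8. For HGF, SORD, BEST1, TFRC, FTH1 and SQSTM1 they are the highest, while for PGD they lie at the level of VC alone and for SLC2A3 between DZNep and PBS.

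Of the 39 genes that fell, 26 were outside the stress response list. BCAT1, the cytosolic branched-chain aminotransferase, measured 1032 and 1099 units with PBS, 1032 and 979 with VC, 1074 and 979 with DZNep, and 514 and 489 with VC and DZNep. The 6 libraries without the combination overlapped between 979 and 1099, and the combination was 2.04-fold below DZNep (-1.03 ± 0.0851, limma adjusted p = 0.000839). GAS6, a ligand of the TYRO3, AXL and MERTK receptor kinases, fell 2.30-fold, from 82 and 86 to 36 and 36 units (-1.20 ± 0.187, adjusted p = 0.0194). TUBE1, epsilon-tubulin of the centrosome, stood at 84 to 93 in the 6 other libraries and at 42 and 41 in the combination (-1.06 ± 0.143, adjusted p = 0.011). OGT, the O-linked N-acetylglucosamine transferase, measured 4795 and 4264 with DZNep and 2724 and 1903 with VC and DZNep (-0.99 ± 0.139, adjusted p = 0.0129), in the range of the highest values, where the largest step between neighbouring values is 0.541 on the log2 scale.

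The remaining large decreases under the naming rule were the calcium-activated channel family gene ANO7 (-1.02), TSPOAP1 (-1.0), the golgin gene GOLGA8B (-0.97) and the aldehyde dehydrogenase gene ALDH3B1 (-0.94). TSPOAP1 was also lower with VC alone (-0.70), at 100 and 100 units against 194 and 138 with PBS, and was not called there. GOLGA8B has near-identical copies, so its value is uncertain. ITGA2B, the integrin alpha-IIb chain of megakaryocytes and platelets, stood at 718 and 620 units with DZNep against 450 and 374 with PBS, and at 413 and 394 with VC and DZNep. Its fall from DZNep was 1.65-fold (-0.72 ± 0.112, limma adjusted p = 0.0194), and it was 1 of 3 erythroid and megakaryocyte markers measured. Their summed value was 793 and 728 with DZNep and 491 and 488 with the combination, and most of that sum is ITGA2B itself. Of the 3 markers 2 were negative and 1 was positive, and ITGA2B was the 1 with an unadjusted p under 0.05. The part of such cells in this result was not tested. LRP11, named after its values were seen, had the largest called decrease on the log2 scale (-2.06 ± 0.37, adjusted p = 0.0389), at 12 and 11 against 2 and 2 units, where 2 is the lowest value of the table.

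Few of these 26 calls held without a library of the compared groups. Without DZNep replicate 1 or 2, 1 and 3 of them were called (limma adjusted p up to 0.276 and 0.216), without VC with DZNep replicate 1 or 2 it was 6 and 4 (up to 0.209 and 0.25), without VC replicate 1 or 2 it was 12 and 11, and without PBS replicate 1 or 2 it was 23 and 23. Without the intensity trend LRP11 was the 1 still called. BCAT1 was called in each fit that left out 1 library (adjusted p 0.00194 to 0.0334).

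Among the 25 genes that rose, the largest changes were in SORD, HGF, KIAA1551, EMILIN2 and BEST1. SORD, sorbitol dehydrogenase, measured 145 and 104 units with PBS, 130 and 124 with VC, 120 and 226 with DZNep, and 440 and 399 with VC and DZNep. Both combination libraries lay above the other 6, 2.53-fold above DZNep, and the DZNep pair was widely spread (1.34 ± 0.249, limma adjusted p = 0.0431). HGF, hepatocyte growth factor, measured 109 and 88, 106 and 96, 196 and 246, and 483 and 530 units in the same order. It was raised 2.30-fold over DZNep (1.20 ± 0.148, adjusted p = 0.00569), with VC alone at the level of PBS, and was not called without DZNep replicate 1 (0.145) or without VC with DZNep replicate 1 or 2 (0.0561 and 0.0977). KIAA1551 rose 2.30-fold, from 326 and 345 to 772 and 772 units (1.20 ± 0.137, adjusted p = 0.00433), and the extracellular matrix gene EMILIN2 rose 2.27-fold, from 90 and 96 to 224 and 201 (1.18 ± 0.179, adjusted p = 0.0194). The PBS and VC libraries of EMILIN2 lay between 22 and 30 units.

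BEST1, the chloride channel bestrophin-1, rose 2.16-fold, from 442 and 392 units with DZNep to 978 and 828 with VC and DZNep (1.11 ± 0.108, limma adjusted p = 0.00192). It was called in each fit that left out 1 library (0.00553 to 0.0401). Its span shares 5798 bases with that of the ferritin heavy chain gene FTH1 on the opposite strand, and FTH1 rose as well. The labels do not state that the counting used strand, so reads from the 2 genes cannot be told apart. The span of 14 of the 64 called genes overlaps a coding gene on the other strand, among them MARS, PCK2, TUBE1, ATF5, SQSTM1 and CFL1.

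Further increases were in NOTCH1, the cell-surface receptor (0.80, limma adjusted p = 0.0259), the nucleoporin gene RANBP2 (0.78, adjusted p = 0.0194), the chitinase-like secreted protein gene CHI3L1 (0.73, adjusted p = 0.0231), RAD54L2 (0.71, adjusted p = 0.0441), the actin-severing cofilin gene CFL1 (0.69, adjusted p = 0.0194), the mitotic INCENP (0.68, adjusted p = 0.0194) and the syntenin gene SDCBP (0.64, adjusted p = 0.0431). RANBP2 and SORD have near-identical copies elsewhere in the genome, so these values are uncertain. INCENP was the only call among 50 mitosis genes (2.0%, beside 0.673% of all genes), whose median was 0.07. An unadjusted p under 0.05 was reached by 3 of the 50, where 13.5% of all genes did. MKI67, the proliferation marker, was not called, at 3652 and 3114 against 4267 and 4267 units (0.34, adjusted p = 0.146). Of the 20 risen genes outside the NRF2 and iron lists, 1 was called without DZNep replicate 1, 3 without DZNep replicate 2, and 2 and 3 without VC with DZNep replicate 1 or 2, with adjusted p reaching 0.286. SORD lost its call without each of the libraries except DZNep replicate 2 (adjusted p 0.0228 without that one, and 0.0533 to 0.25 without the others).

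The NRF2 antioxidant list had 5 called genes of 31, 4 higher and 1 lower, with 23 positive values and a median of 0.20. The lower one was SLC7A11. The called share was 16.1%, beside 0.673% of all genes. For VC over PBS, without DZNep, the list's median was 0.15, with 28 of the 31 positive and 0 called. SQSTM1, the autophagy receptor p62, measured 310 and 342 units with PBS, 355 and 444 with VC, 249 and 300 with DZNep, and 472 and 549 with VC and DZNep. It rose 1.86-fold over DZNep without overlap (0.89 ± 0.138, limma adjusted p = 0.0194). TXNRD1, thioredoxin reductase, rose 1.61-fold, from 884 and 707 to 1172 and 1376 units (0.68 ± 0.118, adjusted p = 0.0316). PGD, the NADPH-forming 6-phosphogluconate dehydrogenase, rose 1.52-fold, from 410 and 432 to 638 and 642 units (0.60 ± 0.0825, adjusted p = 0.0112), and stood at 642 and 622 with VC alone against 498 and 490 with PBS.

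Other members of the list did not pass the test. NQO1, the quinone reductase most used as an NRF2 marker, had the largest difference of the list at 14 and 18 against 52 and 64 units (1.80 ± 0.363, limma adjusted p = 0.0567). GCLM, the modifier subunit of glutamate-cysteine ligase, measured 62 and 54 against 100 and 98 (0.76, adjusted p = 0.0744). In NQO1 and GCLM both combination libraries lay above both DZNep libraries, and the groups did not overlap for 40.9% of all genes. NFE2L2, which encodes NRF2, was not called (0.33, adjusted p = 0.387). The antioxidant response element, searched as TGACNNNGC on both strands, was in 5 of 23 promoter windows of the list (21.7%), beside 24.4% for the stress response list, 22.2% for called genes that rose, 25.8% for those that fell and 15.5% for all tested genes.

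Iron genes had 2 called of 17 (11.8%, beside 0.673% of all genes), both higher, with a median of 0.10. An unadjusted p under 0.05 was reached by 4 of the 17, 3 higher and 1 lower, where 13.5% of all genes did. For VC over PBS their median was 0.12. TFRC, the transferrin receptor, measured 463 and 432 units with PBS, 718 and 844 with VC, 828 and 918 with DZNep, and 1377 and 1443 with VC and DZNep. It rose 1.62-fold over DZNep (0.69 ± 0.0996, limma adjusted p = 0.0149), and VC alone stood 0.80 ± 0.0996 above PBS, a difference that was not called. FTH1, the iron-storing ferritin heavy chain, rose 1.51-fold, from 742 and 643 to 1056 and 1032 units (0.60 ± 0.0906, adjusted p = 0.0194). The light chain gene FTL measured 1172 and 1172 against 1444 and 1444 units and was not called (0.30, adjusted p = 0.124). Pseudogene copies of FTH1 make its value uncertain. None of the 5 called NRF2 and iron genes that rose was called without DZNep replicate 1 or 2 or without VC with DZNep replicate 1 or 2, where limma adjusted p ran from 0.0647 to 0.245, nor without the intensity trend (0.171 to 0.202). Without VC replicate 1 or 2 there were 4, and without PBS replicate 1 or 2 there were 5.

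**Figure D3:**
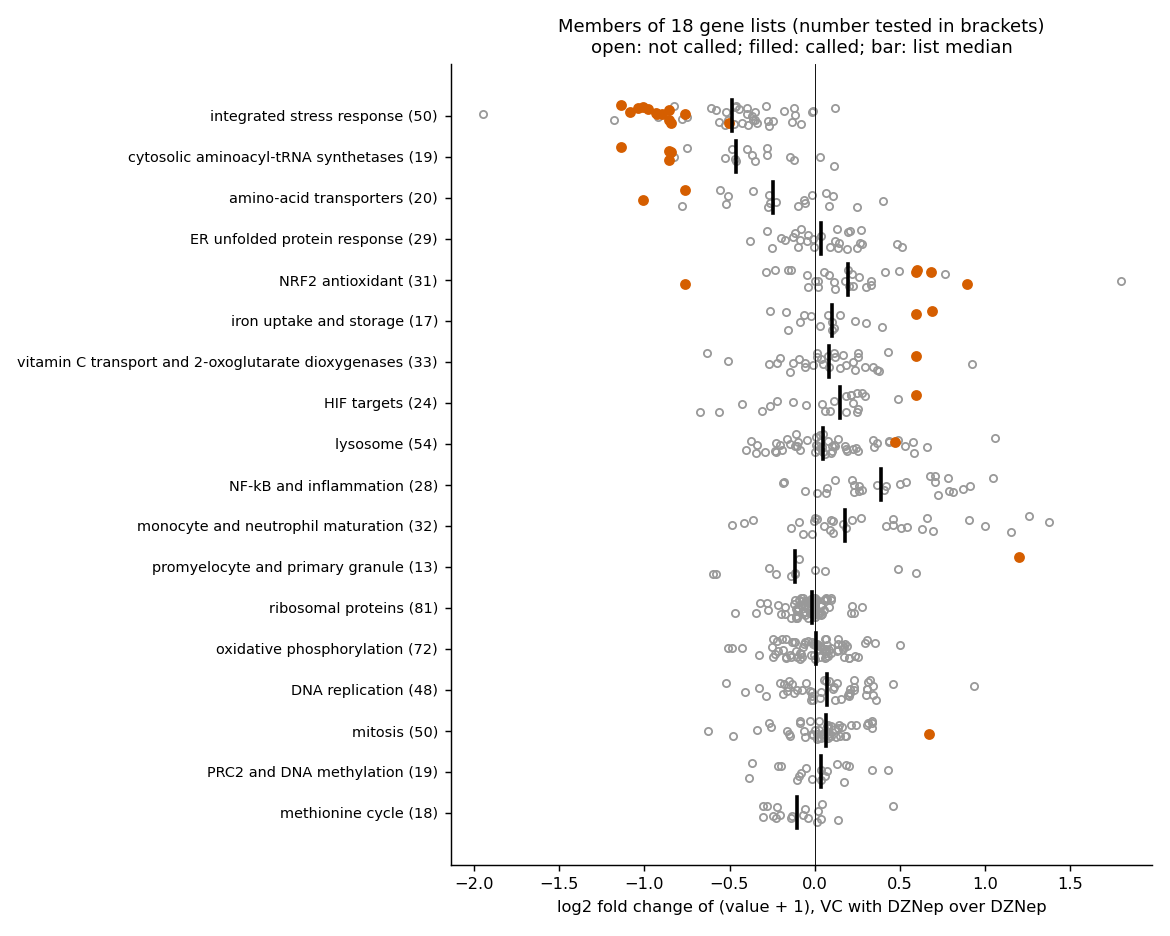
Log2 fold change of VC with DZNep over DZNep (x axis) for the members of 18 gene lists (y axis, number of tested members in brackets), with 1 circle for each gene, filled where called, and a bar at the list's median. The stress response list lies lowest with a median of -0.49, the NF-kB list highest with 0.39 and no filled circle, and ribosomal, respiratory-chain and replication genes sit around 0.

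Vitamin C transport and dioxygenase genes were mostly not called. Of 33 measured, 1 rose and 0 fell (3.03% called, beside 0.673% of all genes), with a median of 0.08. An unadjusted p under 0.05 was reached by 6, 5 higher and 1 lower, where 13.5% of all genes did. SLC2A3, the glucose transporter GLUT3, which also carries oxidised vitamin C, measured 324 and 313 units with PBS, 286 and 326 with VC, 183 and 198 with DZNep, and 280 and 296 with VC and DZNep. It was thus lower with DZNep than in the other groups, and 1.51-fold higher once VC was added (0.59 ± 0.106, limma adjusted p = 0.0386, and 0.25 at most over the alternatives). The vitamin C carrier SLC23A2 (-0.01, adjusted p = 0.986), the glucose transporter SLC2A1 (0.30, adjusted p = 0.387) and the DNA demethylases TET1 (-0.27, adjusted p = 0.724), TET2 (0.05, adjusted p = 0.922) and TET3 (0.24, adjusted p = 0.707) were not called. SLC2A3 was also the 1 call among 24 targets of the hypoxia factor HIF (4.17%). Of these 24, 7 had an unadjusted p under 0.05, 3 higher and 4 lower. VEGFA in that list measured 212 and 246 against 166 and 174 units (-0.42, adjusted p = 0.0985).

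No methylation gene was called, AHCY and EZH2 included. AHCY measured 752 and 680 units with DZNep and 680 and 566 with VC and DZNep (-0.20, limma adjusted p = 0.443). EZH2 measured 160 and 106 against 146 and 148 (0.17, adjusted p = 0.714), with the pairs overlapping, and the maintenance DNA methyltransferase gene DNMT1 772 and 884 against 1012 and 870 (0.18, adjusted p = 0.493). The H3K36 methyltransferase gene SETD2 measured 1548 and 1443 against 1826 and 1548 units (0.17, adjusted p = 0.49). Over the 19 PRC2 and DNA methylation genes 0 were called, 1 had an unadjusted p under 0.05 and the median was 0.04, and over 18 methionine-cycle genes 0 were called, 1 had an unadjusted p under 0.05 and the median was -0.10.

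Inflammatory and maturation genes were mostly higher by value, with none called. Of 28 NF-kB and inflammation genes 25 were positive, with a median of 0.39, and 14 had an unadjusted p under 0.05, all higher, where 6.33% of all genes did. The median stayed between 0.28 and 0.45 over the 15 alternatives. TNFAIP3, the inhibitor A20, measured 47 and 39 against 72 and 80 units (0.81, limma adjusted p = 0.064), and NFKB2 30 and 41 against 60 and 56 (0.71, adjusted p = 0.108). Of 32 monocyte and neutrophil maturation genes 24 were positive, with a median of 0.18, and 12 of 15 at an unadjusted p under 0.05 were higher. The formyl peptide receptor gene FPR2 measured 22 and 26 against 52 and 66 units (1.26, adjusted p = 0.0537), and the beta-glucan receptor gene CLEC7A 9 and 18 against 38 and 32 (1.38, adjusted p = 0.0744). CSF3R, the receptor of granulocyte colony-stimulating factor, lay the other way, at 220 and 201 against 150 and 150 (-0.48, adjusted p = 0.064). The integrin gene ITGAM, which encodes CD11b, measured 80 and 76 against 128 and 120 units (0.66, adjusted p = 0.20).

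The summed markers stand beside these values. The sum of the 33 maturation genes in the table was 6363 and 6378 with DZNep and 6884 and 7489 with VC and DZNep, and that of 13 promyelocyte markers 12822 and 14377 against 13709 and 14939. HGF was the 1 call in the promyelocyte list, where 9 of the 13 genes were negative and 4 positive, with a median of -0.11. The sum is weighted to the genes of highest value. The eosinophil, basophil and mast cell markers, 5 genes, summed to 1157 and 1429 against 1770 and 1579, with the Charcot-Leyden crystal gene CLC at 362 and 386 against 660 and 643 units (0.80, limma adjusted p = 0.283). The lymphoid sum, 4 genes, was 993 and 1092 against 946 and 1034. Of the adherent cell list only 1 gene, PECAM1, is in the table, and 1 gene does not show that such cells were present. PECAM1 measured 40 and 37 against 56 and 55 units (0.52, adjusted p = 0.30). The part of these cells in the results was not tested.

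Survival, growth and housekeeping lists held few or no calls. BCL2, the anti-apoptotic target of venetoclax, measured 187 and 196 units with DZNep and 130 and 96 with VC and DZNep (-0.77 ± 0.166, limma adjusted p = 0.0698), and stood at 223 and 176 with VC alone against 320 and 272 with PBS (-0.57). Its relative MCL1 measured 440 and 442 against 468 and 472 (0.09, adjusted p = 0.688), and MYC 1057 and 1075 against 872 and 845 (-0.31, adjusted p = 0.191). Over 36 BCL2-family and caspase genes 0 were called, with 3 at an unadjusted p under 0.05 and a median of 0.05. The lists of ribosomal proteins (81 genes, median -0.01, 3 at an unadjusted p under 0.05), oxidative phosphorylation (72 genes, 0.01, 5), DNA replication (48 genes, 0.07, 7) and p53 targets (22 genes, -0.01, 5) had 0 called each. So had ribosome biogenesis (49 genes, -0.0047, 5), glycolysis (22 genes, 0.12, 5), cholesterol synthesis (25 genes, 0.05, 2), immediate early genes (22 genes, 0.12, 5), the interferon response (20 genes, 0.01, 0) and histones (15 genes, 0.07, 1). Brackets give each list's median log2 fold change and its number at an unadjusted p under 0.05. Of all genes, 13.5% reached that p. The neutrophil protease gene CTSG measured 10 and 14 against 8 and 7 units (-0.60, adjusted p = 0.395), and TXNIP, which binds thioredoxin, 506 and 476 against 444 and 450 (-0.13, adjusted p = 0.524). Among 54 lysosome genes 1 was called (1.85%, beside 0.673% of all genes), and 12 had an unadjusted p under 0.05, 10 higher and 2 lower. The called gene was LAMP1, a lysosomal membrane protein gene, which rose from 361 and 351 to 499 and 489 units (0.47, adjusted p = 0.0431).

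VC without DZNep was set beside these values. Against PBS it had 0 called genes (0.0%) and 462 at an unadjusted p under 0.05 by limma, the only tool run. The 39 genes that fell with DZNep present had a median log2 fold change of -0.90 there and -0.07 for VC over PBS, where the values ran from -0.70 to 0.22. For the 25 that rose the medians were 0.68 and 0.10. All 64 genes were chosen for their change with DZNep present. A larger change there is therefore built in by the choice and is no finding. In 1 of the 64, TFRC, the VC effect was at least as large without DZNep, and CHI3L1 (0.71 for VC over PBS) and CFL1 (0.64) came close to it.

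**Figure D4:**
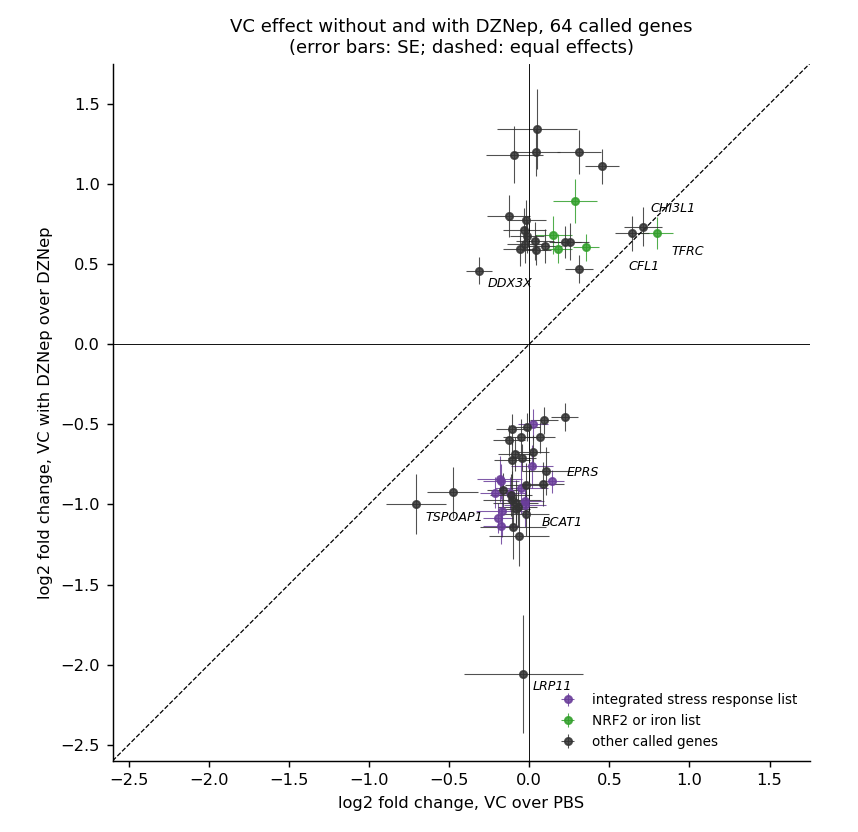
Log2 fold change of VC over PBS (x axis) against that of VC with DZNep over DZNep (y axis) for the 64 called genes, with limma standard errors as bars and a dashed line where both are equal. Purple marks the stress response list, green the NRF2 and iron lists, and black the other genes. The genes were chosen for their y value, so their distance from 0 on that axis is no finding. Most lie near 0 on the x axis, and TFRC, CHI3L1 and CFL1 lie close to the dashed line.

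The difference between the 2 VC effects was tested as an interaction. It was called for 2 genes (0.021%), with 740 at an unadjusted p under 0.05. EPRS had an interaction of -1.0 ± 0.103 on the log2 scale (limma adjusted p = 0.0141) and BCAT1 of -0.95 ± 0.12 (adjusted p = 0.0492). Next by p were PSAT1 (-0.89, adjusted p = 0.108), and DDX3X, an RNA helicase gene with the opposite sign (0.77, adjusted p = 0.108), then MARS (-0.96, adjusted p = 0.199). DDX3X rose from 1281 and 1377 with DZNep to 1826 and 1826 units with VC added, and stood at 1324 and 1172 with VC alone against 1548 and 1548 with PBS. For the other called genes a different VC effect with and without DZNep was not shown. The EPRS interaction was not called without PBS replicate 1 (0.0844), DZNep replicate 1 or 2 (0.159 and 0.0948), or VC replicate 1 or 2 (0.192 and 0.193), and that of BCAT1 was not called in any fit that left out 1 library (0.0761 to 0.503).

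**Figure D5:**
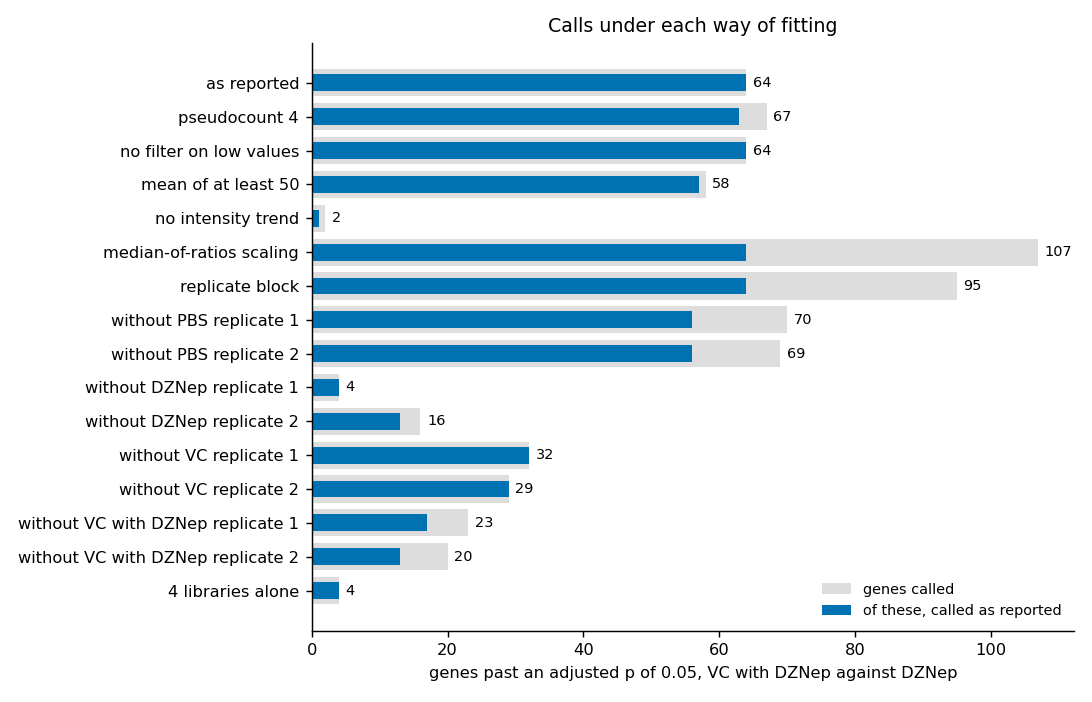
Number of genes called in VC with DZNep against DZNep (x axis) under the reported fit and each of 15 alternatives (y axis). Grey bars give the genes called and blue bars those also called in the reported fit. The count fell to 2 without the intensity trend and to 4 without DZNep replicate 1 or with the 4 libraries alone, and reached 107 with median-of-ratios scaling.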

How the data were processed

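RNA-seq libraries of HL60 cells were prepared from total RNA, and the tools listed in the submitters' processing notes are HTSeq 0.6.0, HISAT2 2.0.4, DESeq 1.18.1 and SAMtools 1.3.1, with builds hg38 and GRCh38. The deposited values, treated as a score, are counts that the authors normalized and rounded, with EDASeq going by the name of the sheet. Every library holds the same sorted values, so count models were not used, depth is unknown and precision rests on 2 libraries a group. The control columns were read as the PBS group.

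Genes with a mean of at least 10 over the 8 libraries (9513 of 9543) were put on the scale of log2(value + 1) and fitted in limma 3.58.1 (R 4.3.3), with 1 mean for each of 4 groups and a prior variance that follows intensity (4 residual and 6.46 prior degrees of freedom). P-values are two-sided, with Benjamini-Hochberg adjustment over all 9513 genes. Contrasts were VC with DZNep against DZNep, VC against PBS, and the difference of both. Fold changes lie on the log2(value + 1) scale and understate those of low genes. Tables and plots were made with Python 3.11.15, pandas 2.3.3, numpy 2.4.6 and matplotlib 3.10.9. The script was tested on simulated data. Spans come from GENCODE 29 and promoter windows from RefSeq.

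The genes named were the 15 largest called increases and 15 largest called decreases whose higher group averaged at least 50 units without overlap, up to 4 members of each of 30 lists, the 5 smallest interaction p-values and a fixed set of drug and leukaemia genes, 4 of which are not analysed here. Genes named beyond it were chosen after their values were seen. The genes, lists and tests were chosen with earlier results of these data known. The 15 alternatives changed the pseudocount, the filter, the trend, the scaling, the replicate block and the libraries fitted.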

Additional observations from a re-analysis of the deposited data

Results flagged for a closer look

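In 2 genes the effect of VC with DZNep present differed from its effect without DZNep, by limma's test of the interaction over all genes. For EPRS the interaction was -1.0 on the log2 scale (limma adjusted p = 0.0141), where VC gave 0.14 over PBS and -0.86 over DZNep. In BCAT1 it was -0.95 (adjusted p = 0.0492), where VC gave -0.08 and -1.03. In both genes both libraries with VC and DZNep lay below both DZNep libraries. These 2 groups did not overlap for any of the 64 called genes, nor for 40.9% of all genes. Over the alternatives in which the interaction was fitted, its adjusted p ran from 0.0137 to 0.357 for EPRS and from 0.037 to 0.503 for BCAT1.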

How the results depend on the processing

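The 64 calls of VC with DZNep against DZNep became 67 with a pseudocount of 4, 64 with no filter, 58 with a mean of at least 50, 2 without the intensity trend, 107 with median-of-ratios scaling and 4 with the 4 libraries fitted alone. Of the 64, these fits shared 63, 64, 57, 1, 64 and 4. Leaving out 1 library gave 4 to 70 calls. The interaction, called for 2 genes, was called for 1 with a mean of at least 50, 0 without the trend, and 0 to 2 with 1 library left out. VC against PBS had 0 calls, 1 with median-of-ratios scaling and 0 to 1 with 1 library left out. The scaling factors moved no library by more than 0.0134 on the log2 scale. Fits on fewer libraries have fewer residual degrees of freedom by construction. For the other changes the cause was not tested.

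All 958 values of called genes under the alternatives kept their sign, and 537 of them stayed past the threshold. Of 449 list medians, 21 moved by more than the spread between replicates, and the adherent cell list of 1 gene gave none with a mean of at least 50. With the replicate block 95 genes were called, the 64 among them, with 3 for the interaction and 0 for VC against PBS. Deviations of same-numbered libraries from their group means correlated between -0.0467 and 0.091 over all genes. Such a correlation cannot exclude a pairing that affects some genes, which was not tested. Without counts, depth sets no stated limit here. Values below 10 lie on coarse steps, and 2 libraries a group limit the precision.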
